A study of Mus musculus with 15 samples.

Results

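The miR-379/410 cluster is a run of miRNA hairpins on mouse chromosome 12, in the imprinted Dlk1-Dio3 region. Its members were taken by position as all annotated hairpins between 109.70 and 109.76 Mb of GRCm38, with both arms of each. There were 44 such hairpins of 2202 annotated in the genome, spread over 38.9 kb from Mir379 (109709060 to 109709125) to Mir3072 (109747878 to 109747960). Of these, 39 carry a miRNA name and 5 do not, and 39 lie on the plus strand. Inserts of 18 to 26 bases were assigned to an arm when their first 18 bases matched the hairpin exactly, and levels are CPM, taken over the miRNA reads of the library. Reads were found for 52 of the 78 arms of the named hairpins, counted as 50 features because 2 pairs of arms share their reads, and for none of the arms of the 5 unnamed hairpins.

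The series holds 15 small-RNA libraries of mouse origin, 3 for each of 5 groups, from a study of Her2-expressing mammary lines, the particles they secrete and miRNAs that may act on the progesterone receptor. TUBO exosomes were isolated from the culture supernatant of TUBO cells, and TUBO supernatant is what was left after that isolation. TUBO cells are a mammary tumour line from Balb-NeuT mice, which carry a Neu (rat Her2) transgene. MM3MG-Her2 cells are MM3MG cells transduced with retroviral particles made from pLSXN-Neu, and MM3MG is a normal mammary epithelial line of BALB/c origin. All cultures were grown in DMEM with 10% FCS. The labels do not say whether the transduced cells were 1 clone or a pool, nor whether the 3 libraries of a group came from separate cultures. The p-values therefore measure spread between libraries that may be technical.

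A miRNA is cut from a hairpin in its primary transcript, first in the nucleus and then in the cytoplasm, which leaves a 5p and a 3p arm. The arm loaded into an Argonaute protein pairs with mRNAs mainly through its seed, bases 2 to 8, and lowers their translation and stability. The Dlk1-Dio3 region makes its noncoding RNAs from the maternal chromosome only: Meg3, the anti-Rtl1 miRNAs, the Rian snoRNA host, the miR-379/410 hairpins and Mirg follow each other on the same strand. In mice the cluster is known to be expressed in the placenta, the embryo and the brain, and its loss disturbs the switch of newborn pups to using stored energy. In rat neurons miR-134, miR-329 and miR-381 take part in dendrite growth that depends on activity. Adenosines in several of these hairpins are known substrates of ADAR enzymes, which turn adenosine into inosine, a base that is read as G.

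The annotation places 29 of the 44 hairpins between annotated genes. The last 15 lie in Mirg, a long noncoding RNA gene on the plus strand (109729764 to 109749460): 9 overlap a Mirg exon, 5 lie in an intron on the same strand, and 1 unnamed hairpin lies in an intron on the opposite strand. A mature sequence was available from RefSeq (GRCm38.p6) for 73 of the 78 arms of named hairpins. The 13 features that reached a group mean of 100 CPM carry the results. Their mature sequences follow 5′ to 3′ in order along the cluster, with the seed in capitals. The list also holds the 2 arms of the window that share a seed with one of them, which had no reads.
miR-379-5p: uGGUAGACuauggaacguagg
miR-411-5p: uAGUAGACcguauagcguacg
miR-299a-5p: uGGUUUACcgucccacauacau
miR-299b-3p: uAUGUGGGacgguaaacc
miR-299a-3p: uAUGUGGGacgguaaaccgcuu
miR-329-5p: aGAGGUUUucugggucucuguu
miR-1193-5p: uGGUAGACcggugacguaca
miR-300-3p: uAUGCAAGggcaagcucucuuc
miR-381-3p: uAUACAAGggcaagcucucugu
miR-382-5p: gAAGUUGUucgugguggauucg
miR-382-3p: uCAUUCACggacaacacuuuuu
miR-134-5p: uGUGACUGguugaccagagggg
miR-541-5p: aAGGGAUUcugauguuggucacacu
miR-409-3p: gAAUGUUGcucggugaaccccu
miR-410-3p: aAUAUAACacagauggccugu

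miR-379-5p shares the GGUAGAC seed with miR-1193-5p, and miR-299a-3p shares AUGUGGG with miR-299b-3p, which is cut from the opposite strand of the same stretch. Among the 13 features no seed is shared: those of miR-379-5p and miR-411-5p (AGUAGAC), and those of miR-300-3p and miR-381-3p, are not the same. Within the window, miR-379-3p and miR-411-3p have the same seed (AUGUAAC). Outside the window, 1 arm shares the seed of miR-411-5p and 2 share that of miR-410-3p. The mature arm of miR-379-5p lies at chr12:109709065-109709085, that of miR-411-5p at chr12:109710190-109710210, that of miR-381-3p at chr12:109726870-109726891, that of miR-541-5p at chr12:109742422-109742446 and that of miR-410-3p at chr12:109743764-109743784, all on the plus strand. The hairpins of miR-382, miR-134 and miR-410 overlap Mirg exons, and those of miR-541 and miR-409 lie in its introns.

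Libraries held 196152 to 710902 reads, of which 58941 to 537019 were miRNA reads. The miRNA share was 57.3% to 60.6% in TUBO exosomes, 28.1% to 33.2% in TUBO supernatant, 75.5% to 76.5% in TUBO cells, 49.8% to 54.6% in MM3MG-Her2 and 72.1% to 78.8% in MM3MG. A count of 0 over a group therefore allows up to 3.35 CPM in exosomes, 14.2 in supernatant, 2.09 in TUBO cells, 4.51 in MM3MG-Her2 and 2.58 in MM3MG, the level of 3 reads over the group. Such limits, and the 95% intervals below, cover counting error only, because the reads come from PCR without molecular identifiers and cannot be taken as separate molecules. Summed levels of 7 epithelial miRNAs (the miR-200 family, miR-203 and miR-205) were 25349 to 26632 CPM in TUBO cells, against 11.6 to 39.9 CPM in MM3MG-Her2 and 25.9 to 44.8 CPM in MM3MG, so the lines labelled mammary epithelial had epithelial miRNAs near 0. Summed levels of 6 mesenchymal and stromal miRNAs were 47185 to 47312 CPM in TUBO cells (5 of 6 with reads, miR-214-3p at 0), 103792 to 107838 CPM in MM3MG-Her2 and 184856 to 200372 CPM in MM3MG. In TUBO cells nearly all of that sum was miR-143-3p, at 46947 ± 79.2 CPM (SD, n = 3), against 61408 ± 2093 CPM in MM3MG-Her2 and 103953 ± 18545 CPM in MM3MG. The other markers of the list were also lower in TUBO cells than in MM3MG-Her2 or MM3MG. miR-199a-3p/miR-199b-3p averaged 117.2 CPM in TUBO cells, 41021 in MM3MG-Her2 and 74772 in MM3MG. miR-199a-5p averaged 2.50 CPM in TUBO cells, 1028 in MM3MG-Her2 and 2938 in MM3MG. For miR-145a-5p the means were 166.2 CPM in TUBO cells, 359.9 in MM3MG-Her2 and 698.9 in MM3MG. miR-10b-5p averaged 14.7 CPM in TUBO cells, 135.3 in MM3MG-Her2 and 9402 in MM3MG. Summed levels of 5 neuronal miRNAs were 125 to 205.9 CPM in TUBO cells, 102.7 to 115.6 in MM3MG-Her2 and 242.7 to 305.8 in MM3MG. miR-124-3p and miR-137-3p were at 0 in all 15 libraries, and the others did not move as one. miR-138-5p averaged 7.07 CPM in TUBO cells, 5.9 in MM3MG-Her2 and 175.3 in MM3MG. miR-129-5p averaged 0.67 CPM in TUBO cells, 33.7 in MM3MG-Her2 and 47.7 in MM3MG. miR-128-3p went the other way, at 152.8 CPM in TUBO cells, 67.8 in MM3MG-Her2 and 50.25 in MM3MG. The part of such differences in the results on the cluster was not tested, and in bulk libraries fewer cells of a type and less RNA per cell cannot be told apart.

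Most of the cluster's reads were from MM3MG cells: 93.4% of its 11396 reads came from the 3 MM3MG libraries. In TUBO exosomes its arms summed to 466.2, 504.9 and 786.4 CPM (585.8 ± 174.8, SD, n = 3), from 521 reads. In TUBO supernatant the sums were 52.9, 186.6 and 78.01 CPM (105.8 ± 71.1), from 21 reads, and in TUBO cells 2.00, 29.99 and 1.86 CPM (11.3 ± 16.2), from 14 reads. In MM3MG-Her2 the sums were 294.8, 285.1 and 285.3 CPM (288.4 ± 5.55), from 192 reads. In MM3MG they were 9572, 9148 and 8873 CPM (9198 ± 351.8), which is 0.92% of the miRNA reads. In CPM over miRNA reads no library of one group overlapped another group. The order from high to low was thus MM3MG, exosomes, MM3MG-Her2, supernatant and TUBO cells. Over all reads of the library, supernatant and TUBO cells overlapped. Supernatant replicates 1 (4 of 228034 reads) and 3 (6 of 273567) then lay below TUBO cells replicate 2 (12 of 525422). In TUBO cells 12 of the 14 reads lay in replicate 2, and the mean without it was 1.93 CPM.

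Within MM3MG, a few arms made up most of the cluster. The 4 highest arms held 69.5% of its reads: miR-379-5p at 2586 ± 611.1 CPM (27.4%), miR-411-5p at 1665 ± 204.3 CPM (18.1%), miR-541-5p at 1248 ± 106.4 CPM (13.8%) and miR-381-3p at 906.1 ± 122.5 CPM (10.1%; SD, n = 3 each). The next was miR-382-5p at 500.6 ± 114 CPM. These 5 arms did not overlap each other in any library. Below them miR-299a-3p, miR-134-5p, miR-300-3p and miR-409-3p followed at means of 325.8, 316.2, 304.7 and 302.3 CPM, and neighbours in this order overlapped. The same was true of miR-382-3p (213.2 CPM) and the joint feature miR-299a-5p/miR-299b-5p (210.8 CPM), and of miR-410-3p (106.5 CPM) and miR-329-5p (105.5 CPM). Together these 13 features held 95.5% of the cluster's MM3MG reads.

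**Figure D1:**
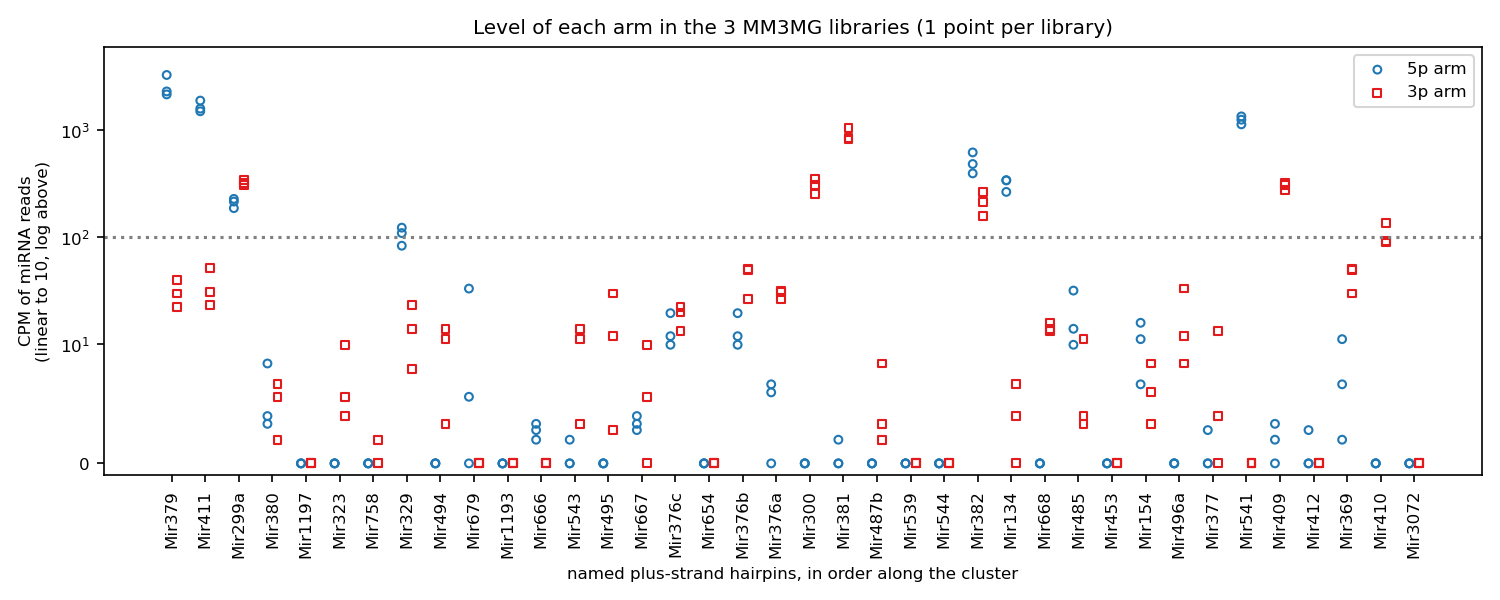
Level of each arm in the 3 MM3MG libraries, as CPM of miRNA reads on an axis that is linear to 10 and logarithmic above, for the named plus-strand hairpins in order along the cluster; each point is 1 library and the dotted line marks 100 CPM. Hairpins above 100 CPM in mean lie singly or in short runs along the cluster, with lower ones between them. miR-379-5p stands at 2164 to 3287 CPM at one end and miR-410-3p at 89.7 to 137 CPM near the other.

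Level did not follow position: Spearman's rho between MM3MG level and order along the cluster was −0.03 over the 39 plus-strand hairpins, a description across hairpins of the same libraries. Of those 39 hairpins 31 had MM3MG reads and 11 reached 100 CPM. The 5p arm was the higher one in 12 of the 31 and the 3p arm in 19, and 18 gave reads from both arms. No minimum depth was set for these counts: Mir758 and Mir412 had 1 MM3MG read each, and Mir380 had 6 against 5. The 16 reads of miR-376b-5p/miR-376c-5p were counted for both hairpins. The strand kept was nearly exclusive in many hairpins. Mir379 gave 98.8 ± 0.129% of its reads from the 5p arm, Mir411 97.9 ± 0.915%, Mir134 99 ± 0.96% and Mir541 100% (SD, n = 3). Mir409 gave 0.603 ± 0.595% from its 5p arm, and Mir300 and Mir410 gave none. More balanced were Mir299a, with 39.2 ± 2.95% from the 5p arm, Mir382 with 69.6 ± 9.82% and Mir329 with 87.9 ± 4.71%.

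A further 14 features had a group mean of 10 to 100 CPM, in each case in MM3MG. The highest were miR-369-3p at 43.3 CPM and miR-376b-3p at 42.2 CPM, and then miR-411-3p (35.3), miR-379-3p (30.7) and miR-376a-3p (29.7). The others were miR-485-5p (18.6), miR-376c-3p (18.5), miR-496a-3p (17.9), miR-329-3p (15.1), miR-495-3p (14.9), miR-668-3p (14.4), miR-376b-5p/miR-376c-5p (13.8), miR-679-5p (12.9) and miR-154-5p (11.3 CPM). None of these 14 had a read in TUBO cells. The remaining 23 features had 1 to 19 reads each over the 15 libraries and at most 9.48 CPM in MM3MG. Reads of miR-1197-3p (2, 1 and 2) and miR-654-3p (1, 0 and 1) were found in the exosome libraries alone.

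MM3MG-Her2 cells, which were transduced with Neu, were set against MM3MG cells. The series holds no MM3MG cells transduced without Neu, and the part of Neu in the differences was not tested. The cluster's summed level was 31.8-fold lower in MM3MG-Her2 (95% counting interval 27.6 to 36.9). In the edgeR quasi-likelihood test with Benjamini-Hochberg adjustment over all 281 features tested, 14 cluster features were tested and the 14 fell, where 31.7% of all features tested fell and 63.0% changed in either direction. All 14 also had every MM3MG-Her2 library below every MM3MG library, against 33.8% of all features tested. The 14 had passed the low-count filter through MM3MG, the group where they are high, and 2 of them also through MM3MG-Her2, so these counts describe the arms that could be tested and not the other 36. Their median log2 fold change was −4.49, beside 0.00 over all features tested.

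miR-379-5p, at the upstream end, had 30.4, 27.0 and 39.9 CPM in the MM3MG-Her2 libraries, against 3287, 2308 and 2164 CPM in MM3MG. Its fall was the largest of the 14, at a log2 fold change of −6.30 ± 0.27 (SE, n = 3 per group; adjusted p = 2.42e-14). miR-411-5p, cut from the next hairpin, had 47.7, 38.5 and 45.6 CPM in MM3MG-Her2, against 1506, 1594 and 1895 CPM in MM3MG, and fell by 5.20 ± 0.23 (adjusted p = 3.4e-14). These 2 arms led the cluster in MM3MG, and in MM3MG-Her2 miR-411-5p lay above miR-379-5p, in mean. The joint feature miR-299a-5p/miR-299b-5p had 13.01, 11.6 and 0 CPM in MM3MG-Her2, against 216, 228.8 and 187.5 CPM in MM3MG (−4.47 ± 0.42, adjusted p = 1.12e-08). miR-299a-3p, from the other arm, had 17.3, 11.6 and 17.1 CPM in MM3MG-Her2, against 342.3, 310.4 and 324.7 CPM in MM3MG (−4.37 ± 0.30, adjusted p = 1.07e-10), so both arms of this hairpin were lower to a like degree. miR-329-5p was represented by 1 read, in MM3MG-Her2 replicate 1, against 109.7, 83.6 and 123.2 CPM in MM3MG (adjusted p = 1.96e-07). miR-300-3p had 17.3, 23.1 and 5.71 CPM in MM3MG-Her2, against 255.9, 350.2 and 307.9 CPM in MM3MG (−4.16 ± 0.33, adjusted p = 1.2e-09). miR-381-3p, known in rat neurons for its part in dendrite growth, had 26.01, 34.7 and 11.4 CPM in MM3MG-Her2, against 820.9, 1046.5 and 851 CPM in MM3MG, and fell by 5.11 ± 0.32 (adjusted p = 8.95e-11). None of these features had overlapping groups.

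In the downstream part, inside Mirg, the arms also fell. miR-382-5p had 13.01, 11.6 and 22.8 CPM in MM3MG-Her2, against 621.5, 395.9 and 484.3 CPM in MM3MG (−4.97 ± 0.32, adjusted p = 6.06e-11 in the edgeR test), and its partner miR-382-3p had 13.01, 3.85 and 5.71 CPM, against 159.5, 264.6 and 215.5 CPM (−4.75 ± 0.43, adjusted p = 9.34e-09). miR-134-5p, which in rat neurons holds back the size of dendritic spines, had 8.67, 19.3 and 11.4 CPM in MM3MG-Her2, against 342.3, 340.2 and 265.9 CPM in MM3MG (−4.49 ± 0.34, adjusted p = 5.1e-10). miR-541-5p kept the highest mean level of the cluster in MM3MG-Her2, at 47.7, 65.5 and 45.6 CPM, against 1137, 1349 and 1257 CPM in MM3MG (−4.49 ± 0.27, adjusted p = 6.68e-11). Its MM3MG-Her2 libraries overlapped those of miR-411-5p. The smallest falls of the 14 were at the downstream end. miR-409-3p had 17.3, 19.3 and 39.9 CPM in MM3MG-Her2, against 275.9, 320.3 and 310.7 CPM in MM3MG (−3.60 ± 0.29, adjusted p = 1.99e-09), and miR-410-3p had 13.01, 3.85 and 5.71 CPM, against 89.7, 137.3 and 92.4 CPM (−3.76 ± 0.50, adjusted p = 1.8e-06). miR-369-3p, which lies between them, had 4.33, 0 and 5.71 CPM in MM3MG-Her2, against 29.9, 49.7 and 50.4 CPM in MM3MG (−3.69 ± 0.70, adjusted p = 0.00011).

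Leaving out 1 library at a time left these calls in place, except that miR-369-3p was not tested without MM3MG replicate 2, and it moved some values by more than 1.5-fold. Without MM3MG-Her2 replicate 1, 3 named arms moved, to log2 fold changes between −8.45 and −4.49; without MM3MG-Her2 replicate 3, 5 moved, to −7.07 to −4.59; and without MM3MG replicate 1, 7 moved, to −5.85 to −4.24. Across the 14 features the size of the fall was smaller farther along the cluster (Spearman's rho 0.64 between log2 fold change and distance from Mir379). That pattern was noticed after the values had been seen and is a description across arms that share the same 6 libraries. The median over all features tested moved by 0.10 on the log2 scale with relative-log-expression scaling.

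**Figure D2:**
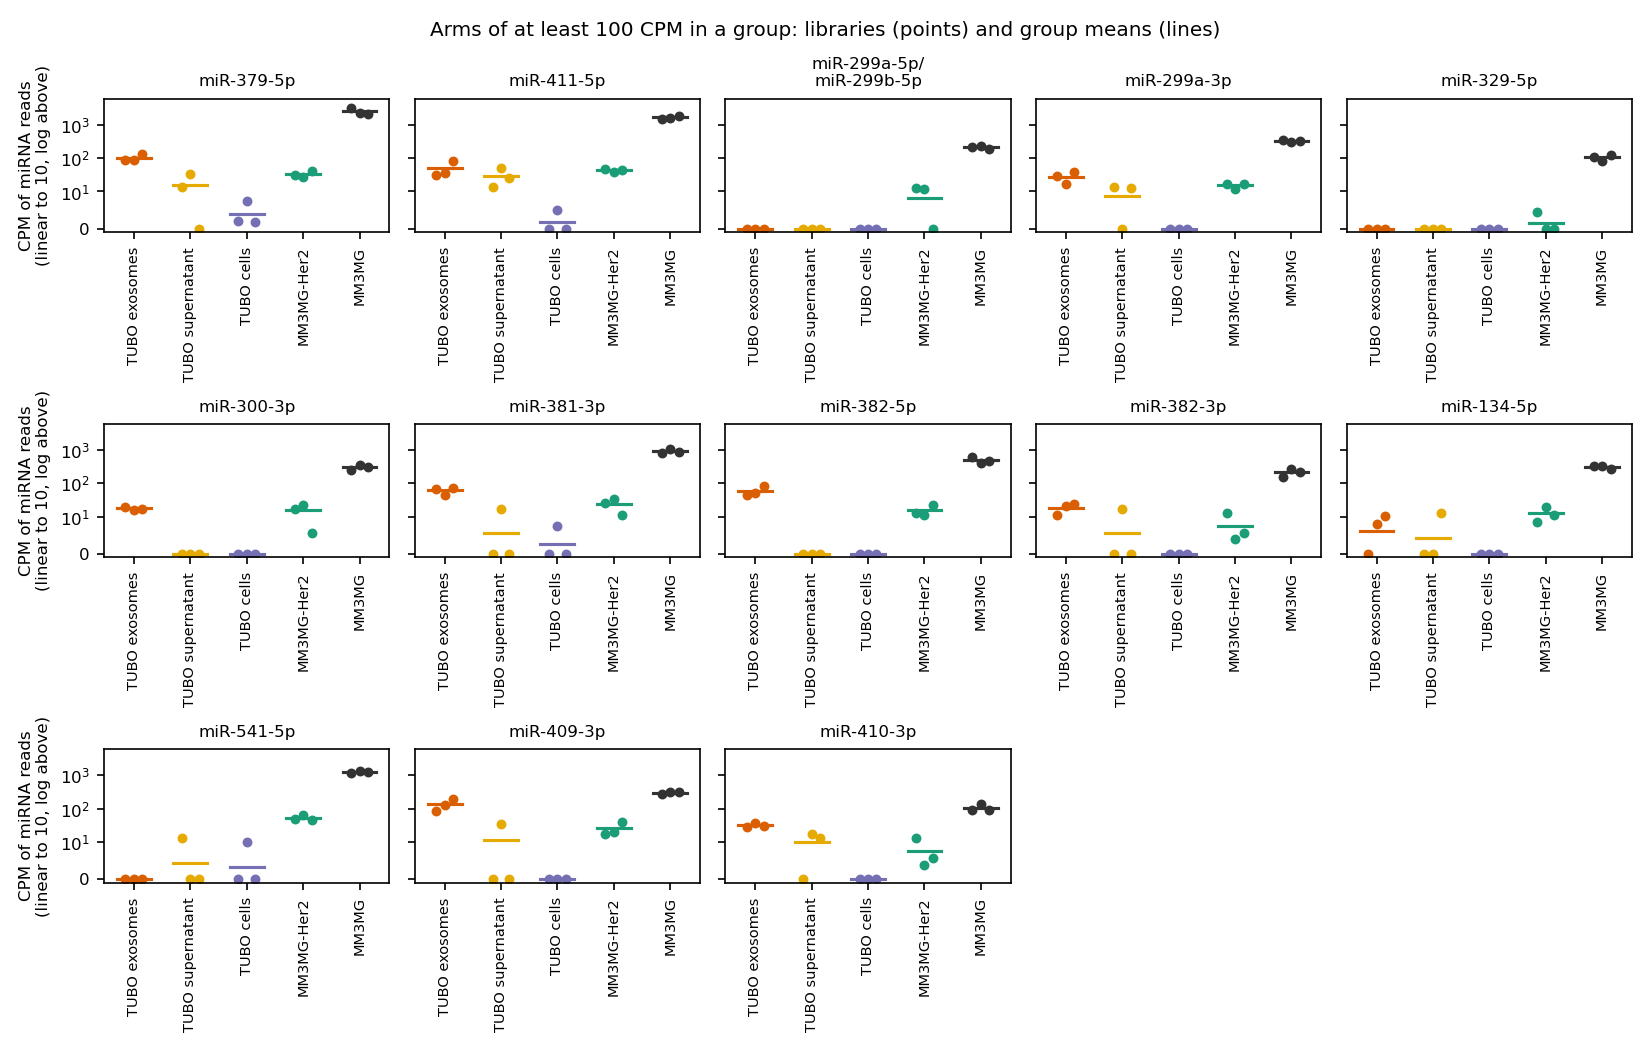
Level of each of the 13 features of at least 100 CPM in the 5 groups, in CPM of miRNA reads on an axis that is linear to 10 and logarithmic above; points are libraries and lines are group means. In each panel the 3 MM3MG libraries lie above all others, TUBO cells are at 0 for 9 of the 13, and miR-409-3p and miR-379-5p are the highest arms in exosomes.

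TUBO cells had almost no cluster reads. The sum was 942-fold lower in TUBO cells than in MM3MG (95% counting interval 561 to 1723) and 29.6-fold lower than in MM3MG-Her2 (17.2 to 55.2). Both folds depend on TUBO cells replicate 2: without it they were 4758-fold (1317 to 39292) and 150-fold (40.9 to 1244), on 2 reads. Of the 50 features 4 had reads in TUBO cells: miR-379-5p with 5, miR-541-5p with 4, miR-381-3p with 3 and miR-411-5p with 2. All reads of miR-541-5p, miR-381-3p and miR-411-5p lay in TUBO cells replicate 2. Against MM3MG the 14 tested features fell, where 37.7% of all features tested fell and 43.4% had every TUBO library below every MM3MG library. They again passed the low-count filter through MM3MG, 0 of them through TUBO cells.

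miR-379-5p had 2.00, 7.50 and 1.86 CPM in TUBO cells, against 3287, 2308 and 2164 CPM in MM3MG (log2 fold change −9.11 ± 0.32, adjusted p = 8.1e-17 in the edgeR test). miR-541-5p had 0, 10.0 and 0 CPM in TUBO cells, against 1137, 1349 and 1257 CPM in MM3MG, and fell by 8.35 ± 0.37 (adjusted p = 1.61e-13). For the 10 tested features with 0 reads in TUBO cells the fold is a lower bound, set by 3 reads over the group. The level was at least 231-fold lower in TUBO cells for miR-382-5p, at least 155-fold for miR-299a-3p, 152-fold for miR-134-5p, 150-fold for miR-300-3p and 147-fold for miR-409-3p. For miR-382-3p it was at least 106-fold lower, for miR-299a-5p/miR-299b-5p at least 102-fold, for miR-410-3p at least 53.2-fold, for miR-329-5p at least 49.1-fold and for miR-369-3p at least 21.5-fold. With these features at their bounds the median log2 fold change of the 14 was −7.24, against a fitted −9.15, beside 0.22 over all features tested. Without TUBO cells replicate 2 the 4 features with reads moved to log2 fold changes between −12.35 and −10.46, and without MM3MG replicate 1, 4 features moved to between −10.25 and −8.90, with every call kept. miR-369-3p was not tested without MM3MG replicate 2. The median of all features tested was −0.21 with relative-log-expression and −0.43 with upper-quartile scaling, far smaller than these falls.

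Set against MM3MG-Her2, which also carries Neu, TUBO cells were lower in 12 of the 14 tested features, where 40.6% of all features tested were lower. The exceptions were the scarce miR-329-5p, with 0 reads in TUBO cells and 1 in MM3MG-Her2 (adjusted p = 0.199, edgeR), and miR-369-3p, with 0 and 2 (adjusted p = 0.0778). The median was −4.42 as fitted and −2.83 with 10 features at their bound, beside −0.10 over all features tested. The 2 comparisons with TUBO cells share those 3 libraries. miR-411-5p had 0, 4.999 and 0 CPM in TUBO cells, against 47.7, 38.5 and 45.6 CPM in MM3MG-Her2, a 31.3-fold lower level with a 95% counting interval of 7.92 to 271. miR-409-3p, with 0 reads in TUBO cells, was at least 11.5-fold lower and miR-382-5p at least 7.2-fold lower. In this comparison fold changes moved by more than 1.5-fold for miR-541-5p without MM3MG-Her2 replicate 1 (−4.45), for 4 arms without MM3MG-Her2 replicate 2 (−5.07 to −3.46) and for 4 arms without TUBO cells replicate 2 (−7.40 to −4.11), with the calls kept.

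The cluster's share of the miRNA reads was larger in the TUBO exosome libraries than in the TUBO cell libraries. The summed level was 59.8-fold higher in TUBO exosomes than in TUBO cells (95% counting interval 35.3 to 110), and 22 features had reads in exosomes, against 4 in cells. Without TUBO cells replicate 2, which holds 12 of the 14 cell reads, the fold was 302 (83.2 to 2501). Of the cluster features 5 passed the low-count filter among the TUBO-derived libraries: 4 reached its 33.9 CPM in the 3 exosome libraries, and miR-411-5p reached it in 2 of those and in supernatant replicate 2. The 5 rose, where 24.8% of all features tested rose. They had passed the filter mainly through exosomes, the group where they are high, so this count describes only the arms that could be tested. miR-409-3p was the highest of the cluster in exosomes, at 84.8, 130.3 and 196.6 CPM, against 0 reads in TUBO cells, so its level was at least 64.3-fold higher (adjusted p = 5.79e-08, edgeR). miR-379-5p had 87.6, 89.6 and 132.2 CPM in exosomes, against 2.00, 7.50 and 1.86 CPM in TUBO cells (log2 fold change 4.96 ± 0.53, adjusted p = 1.27e-07). These 2 arms overlapped each other in exosomes. miR-382-5p had 45.2, 52.9 and 81.3 CPM in exosomes and 0 reads in cells, at least 28.4-fold higher (adjusted p = 1.75e-06). miR-381-3p had 67.8, 44.8 and 71.2 CPM in exosomes, against 0, 7.50 and 0 CPM in cells (30-fold, 95% counting interval 9.75 to 150; adjusted p = 4.58e-06). miR-411-5p had 31.1, 36.6 and 84.7 CPM in exosomes, against 0, 4.999 and 0 CPM in cells (36.2-fold, 9.44 to 308; adjusted p = 1.13e-05). For miR-411-5p and miR-381-3p the log2 fold change lay between 4.17 and 7.02 when TUBO cells replicate 1, 2 or 3 was left out, and for miR-411-5p it was 4.36 without TUBO exosomes replicate 3, with each call kept.

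Below the filter, and without a test, 4 more of the 13 features had reads in each exosome library. miR-410-3p had 28.2, 36.6 and 30.5 CPM in exosomes (at least 15-fold above TUBO cells), miR-299a-3p 28.2, 16.3 and 37.3 CPM (at least 13.4-fold), miR-300-3p 19.8, 16.3 and 16.9 CPM and miR-382-3p 11.3, 20.4 and 23.7 CPM (at least 8.57-fold each). miR-134-5p had 0, 8.14 and 10.2 CPM in exosomes, so 1 of the 3 libraries had no read. The less abundant miR-369-3p had 28.2, 24.4 and 37.3 CPM in exosomes (at least 14.5-fold). miR-541-5p, the highest arm of the cluster in MM3MG-Her2, had 0 reads in the 3 exosome libraries, as did miR-299a-5p/miR-299b-5p, miR-329-5p and miR-376b-3p.

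The summed level of 6 blood and liver miRNAs found in serum was also higher in exosomes. It was 10140 to 24375 CPM in exosomes (6 of 6 with reads), 3071 to 7086 CPM in supernatant (4 of 6) and 122.5 to 155.9 CPM in TUBO cells (2 of 6). Most of the exosome sum was the joint feature miR-3107-5p/miR-486-5p, at 14091 ± 8028 CPM in exosomes, against 4380 ± 2324 CPM in supernatant and 138.3 ± 15.9 CPM in TUBO cells (SD, n = 3 each). The liver miRNA miR-122-5p averaged 32.7 ± 3.39 CPM in exosomes and 5.36 ± 2.75 CPM in TUBO cells. In supernatant it averaged 76.0 ± 55.5 CPM. miR-144-3p, miR-150-5p and miR-223-3p had 63, 23 and 25 reads in exosomes, and 0 each in TUBO cells. Each of the 6 had a higher mean in exosomes than in TUBO cells. Between exosomes and supernatant the list did not move as one, since miR-122-5p alone had the lower mean in exosomes. The erythrocyte miRNA miR-451a had 876 reads in exosomes, 2 in supernatant and 0 in TUBO cells. The cultures contained FCS, reads were matched to mouse hairpins only, and the part of serum in the exosome results was not tested.

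In TUBO supernatant the cluster rested on 21 reads and its single-arm values are correspondingly weak. The sum was 10.2-fold higher in supernatant than in TUBO cells (95% counting interval 4.95 to 21.7) and 5.86-fold higher in exosomes than in supernatant (3.8 to 9.56). The fold over TUBO cells was 51.5 (12.6 to 453) without TUBO cells replicate 2 and 6.73 (2.68 to 16.3) without supernatant replicate 2. Leaving out supernatant replicate 2 also moved the fold of exosomes over supernatant, to 8.88 (4.79 to 18.6). Of 5 tested features 2 rose in supernatant against cells, where 35.1% of all features tested rose. One was miR-411-5p, with 13.2, 50.9 and 26 CPM in supernatant, against 0, 4.999 and 0 CPM in cells (20.4-fold, 95% counting interval 3.65 to 207; adjusted p = 0.00366, edgeR). The other was miR-409-3p, called on 2 reads of supernatant replicate 2, against 0 in cells (adjusted p = 0.0279), and the call was lost without that library. For miR-411-5p the log2 fold change of 4.25 ± 1.20 became 6.10 without TUBO cells replicate 2, 3.63 without supernatant replicate 2, 3.56 without TUBO cells replicate 1 and 3.53 without TUBO cells replicate 3. Against supernatant, 4 of 5 features rose in exosomes, where 38.0% of all features tested rose. The 5 had passed the low-count filter mainly through exosomes, so this count too describes only the arms that could be tested. miR-379-5p had 87.6, 89.6 and 132.2 CPM in exosomes, against 13.2, 33.9 and 0 CPM in supernatant (log2 fold change 2.77 ± 0.72, adjusted p = 0.00197), and miR-409-3p rose by 3.73 ± 0.83 (adjusted p = 0.000643) against 2 supernatant reads (14.2-fold, 95% counting interval 3.84 to 118). miR-382-5p was at least 4.18-fold higher in exosomes. miR-381-3p, with 1 supernatant read, also rose (adjusted p = 0.00783), and lost its call without supernatant replicate 1 (adjusted p = 0.0573) or replicate 3 (0.0636). With supernatant replicate 2 left out the arms that moved lay between 3.94 and 8.53 on the log2 scale, and with replicate 3 left out between 2.02 and 2.99. miR-411-5p did not pass the test between exosomes and supernatant (0.76 ± 0.75, adjusted p = 0.385).

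**Figure D3:**
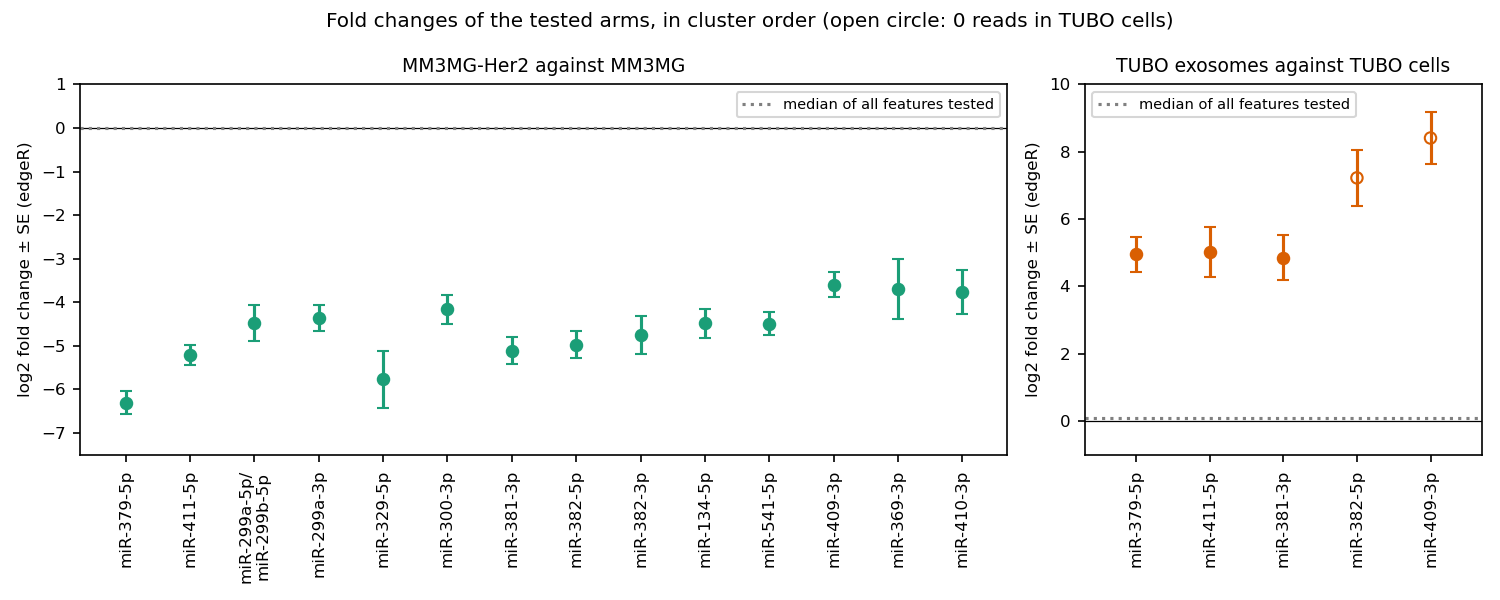
Log2 fold changes (points) with their standard errors (bars) from the edgeR fit for the tested features in cluster order, with MM3MG-Her2 against MM3MG in one panel and TUBO exosomes against TUBO cells in the other; the dotted line is the median of all features tested and open circles mark features with 0 reads in TUBO cells, whose fitted values are no bounds. The 14 features of the first panel lie between −6.30 and −3.60, and the 5 of the second lie above 4.8.

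The make-up of the cluster reads differed between exosomes and MM3MG cells, the 2 groups with the most reads. Of the 13 features of at least 100 CPM 3 took a larger share in each exosome library than in each MM3MG library, 6 a smaller share, and 4 overlapped. miR-409-3p made up 18.2%, 25.8% and 25% of the cluster reads in exosomes, against 2.88%, 3.5% and 3.5% in MM3MG. miR-410-3p, from a hairpin just downstream, made up 6.06%, 7.26% and 3.88% in exosomes, against 0.938%, 1.5% and 1.04% in MM3MG, and miR-369-3p, outside the 13, made up 6.06%, 4.84% and 4.74%, against 0.312%, 0.544% and 0.568%. miR-382-5p also had the larger share in exosomes, at 9.7%, 10.5% and 10.3%, against 6.49%, 4.33% and 5.46%. miR-541-5p, whose hairpin is the neighbour of Mir409, had 0 of 521 reads in exosomes, which allows a share of up to 0.576%, against 11.9%, 14.7% and 14.2% in MM3MG. miR-379-5p made up 18.8%, 17.7% and 16.8% in exosomes, against 34.3%, 25.2% and 24.4% in MM3MG, and miR-411-5p 6.67%, 7.26% and 10.8%, against 15.7%, 17.4% and 21.4%. With 3 libraries a side an exact permutation test cannot go below p = 0.1, and no test was made of these shares. The shares of a library add up to 100%, so a larger share of an arm goes with smaller shares of others. All 13 features reached 100 CPM in MM3MG, so the count leaves out arms that are scarce there. Among those, miR-379-3p, miR-1197-3p, miR-494-3p and miR-543-3p, on few exosome reads, also had a larger share in each exosome library than in each MM3MG library. Many other scarce arms had a smaller share in exosomes or overlapped. How often these 2 groups fail to overlap over all features was not counted. In MM3MG-Her2 the order was different again, with miR-541-5p at 18.8% of 192 reads, miR-411-5p at 15.1%, miR-379-5p at 10.9%, miR-381-3p at 8.85% and miR-409-3p at 8.33%.

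**Figure D4:**
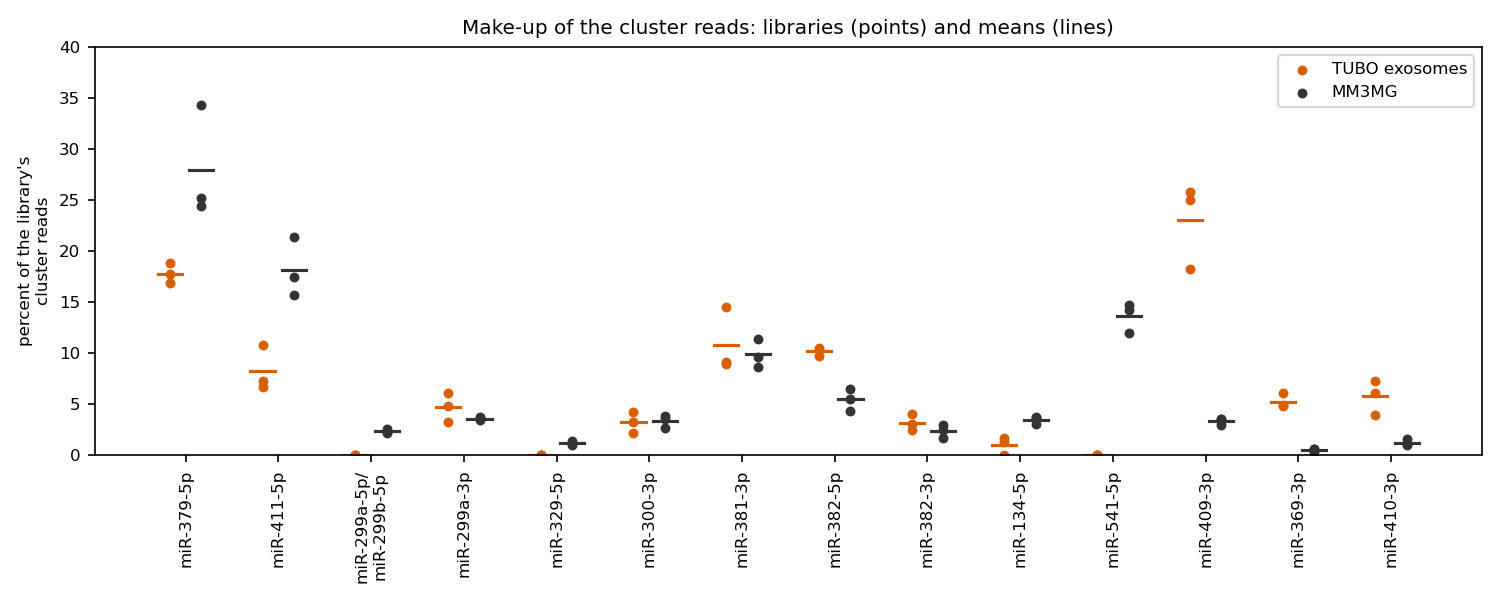
Percent of each library's cluster reads held by each feature, in TUBO exosomes and MM3MG; points are libraries and lines are means. miR-409-3p stands at 18.2% to 25.8% in exosomes, against 2.88% to 3.5% in MM3MG, and miR-541-5p at 0 in exosomes, against 11.9% to 14.7% in MM3MG.

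The 5′ end decides which bases form the seed, and it was not uniform in the cluster. Most arms began at the RefSeq start, as miR-379-5p did in 99.1 ± 0.231% of its MM3MG reads (SD, n = 3). miR-411-5p began 1 base upstream in 57.8% of 45 exosome reads, in 17.2% of 29 MM3MG-Her2 reads and in 30.5%, 29.2% and 26.3% of its reads in the 3 MM3MG libraries (28.7 ± 2.15%). The MM3MG libraries lay close together, while the values of the other groups rest on few reads. miR-382-3p began 2 bases upstream of its RefSeq start in 95.9 ± 2.98% of its MM3MG reads. miR-409-3p was ragged, with 8.97 ± 2.43% of reads beginning 1 base upstream and 23.5 ± 3.26% 1 base downstream. miR-382-5p had 9.68 ± 3.24% beginning 1 base and 9.94 ± 4.11% beginning 2 bases downstream, and miR-299a-3p had 10.6 ± 0.306% beginning 1 base upstream. The most frequent shifted inserts of the 2 arms with the largest shifts are printed as deposited, in DNA letters, with bases 2 to 8 of the insert in capitals to set beside the seeds above. They had 409 and 129 reads over all libraries.
miR-411-5p shifted: aTAGTAGAccgtatagcgtacg
miR-382-3p shifted: aATCATTCacggacaacacttt

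Insert length differed for miR-541-5p. Inserts of 24 bases or more made up 90.9%, 76.5% and 62.5% of its reads in the 3 MM3MG-Her2 libraries (28 of 36 reads), against 26%, 30.8% and 30.3% in MM3MG (434 of 1469). The means were 76.6 ± 14.2% and 29 ± 2.63% (SD, n = 3 each), and the groups did not overlap. The exact two-sided permutation test gave p = 0.1, the smallest it can give with 3 against 3, and this arm was singled out after its values had been seen.

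Substitutions were looked for at each base of the first 18 in arms with at least 200 reads. Positions are counted from 1 at the RefSeq 5′ end, and a token gives the RefSeq base, the position and the base read. A-to-G changes stood out at position 5 of 2 arms, the neighbours miR-379-5p and miR-411-5p, inside the seed of both. In miR-379-5p A5G was found in 2 of 102 covering reads of exosomes, 0 of 23 of MM3MG-Her2, and 1.27%, 2.29% and 1.35% in the 3 MM3MG libraries, where it was 52 of 3066 in all (1.7%, 95% Wilson interval 1.3 to 2.22). In miR-411-5p it was found in 3 of 51 covering reads of exosomes, 0 of 30 of MM3MG-Her2, and 3.48%, 3.51% and 3.89% in the MM3MG libraries, 75 of 2064 in all (3.63%, 2.91 to 4.53). Both arms carried it in each MM3MG library, and miR-411-5p more often than miR-379-5p in each. In MM3MG, at the other 48 A positions of the 11 arms, 11 of 44823 covering bases were G (0.0245%), and the highest single position was A7G in miR-382-3p at 0.35%. The few MM3MG-Her2 reads do not separate that group from MM3MG at this depth. Other changes above 1% were U16C in miR-300-3p (3.11%) and miR-381-3p (2.18%), and A1C (2.74%) and U7G (1.08%) in miR-541-5p. The most frequent inserts with A5G are printed in DNA letters with the changed base in capitals, and had 29 and 39 reads over all libraries.
miR-379-5p with A5G: tggtGgactatggaacgtagg
miR-411-5p with A5G: tagtGgaccgtatagcgtacg

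**Figure D5:**
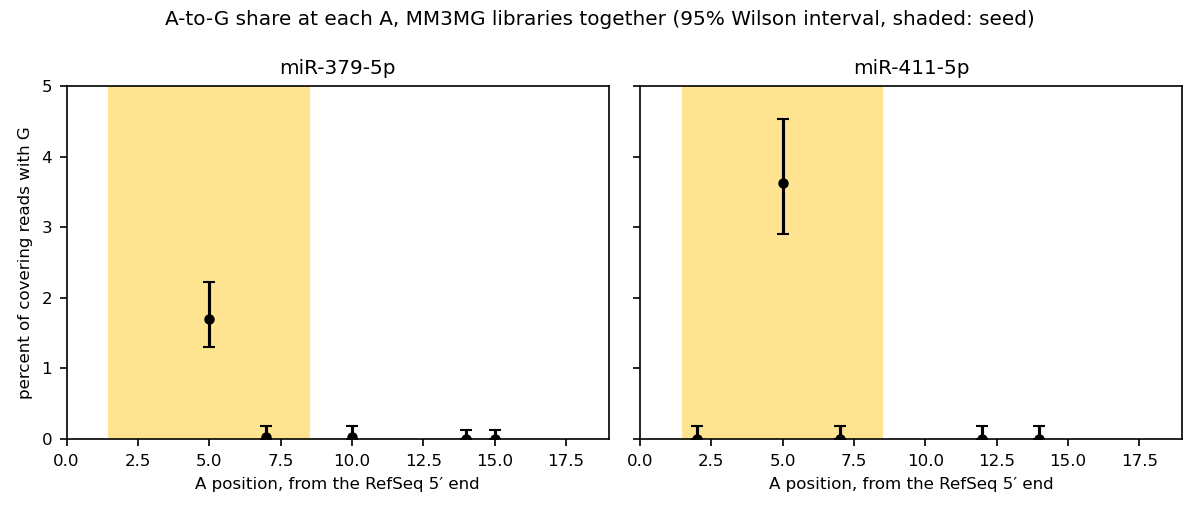
Percent of covering reads with G at each A of the first 18 bases of miR-379-5p and miR-411-5p, against the position counted from the RefSeq 5′ end, in the 3 MM3MG libraries together; bars are 95% Wilson intervals for counting error and the seed is shaded. Position 5 stands at 1.7% in miR-379-5p and 3.63% in miR-411-5p, and the other positions lie near 0.

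The rest of the maternally expressed region was set beside the cluster. The 21 named hairpins between 109.45 and 109.70 Mb, among them the anti-Rtl1 miRNAs, gave 24 features. Their summed level was 411.5 ± 254.5 CPM in exosomes, 89.6 ± 14.5 in supernatant, 6.12 ± 5.63 in TUBO cells, 144.5 ± 39.3 in MM3MG-Her2 and 8789 ± 768 in MM3MG (SD, n = 3 each). The exosome libraries had 276.9, 252.4 and 705 CPM, with a mean of 264.7 CPM without replicate 3, and the TUBO cell libraries 3.998, 12.5 and 1.86 CPM, with a mean of 2.93 CPM without replicate 2. The order of the 5 group means was that of the cluster, also without these libraries. Of the 24 features 8 were tested among the cell libraries. The 8 had passed the low-count filter through MM3MG, and miR-127-3p also through MM3MG-Her2. Against MM3MG these 8 fell in MM3MG-Her2, where 31.7% of all features tested fell, with a median log2 fold change of −5.45 (−5.05 with 1 feature at its bound), and the 8 fell in TUBO cells, where 37.7% of all features tested fell, with a median of −9.35 (−7.61 with 6 at their bound). miR-127-3p, an anti-Rtl1 miRNA, held 78% of these reads in exosomes, 57.1% in MM3MG-Her2 and 74.2% in MM3MG. Its share was thus similar in exosomes and MM3MG. Some less abundant arms differed between these groups, which was not tested. miR-493-5p had 51 reads in exosomes, against 3 in MM3MG, and the 2 arms of miR-434 had 0 reads in exosomes, against 379 ± 89.8 and 417.3 ± 91 CPM in MM3MG.

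Fragments of the other noncoding RNAs of the region were also counted, as RPM over all reads of the library. The annotation holds 23 snoRNAs between 109.6 and 109.7 Mb, around Rian, and 10 features of them had reads. MM3MG-Her2 had 0, 0 and 1 such reads, against 41, 64 and 38 in MM3MG (93.8 ± 8.73 RPM, SD, n = 3), 121 times as many in MM3MG (95% counting interval 21.3 to 4806). TUBO exosomes, supernatant and cells had none, at least 47.5-fold, 22-fold and 59.5-fold lower than MM3MG. snoRNAs from elsewhere in the genome had reads in each group, with MM3MG at 11.5 times the level of exosomes, 6.12 times supernatant, 1.83 times TUBO cells and 1.78 times MM3MG-Her2. Inserts matching Rian numbered 11, 14 and 12 in the MM3MG libraries and 0 in the other 12, which puts MM3MG-Her2 at least 10.4-fold and TUBO cells at least 15.4-fold lower. Mirg, the gene that holds the downstream hairpins, had 1 read in exosomes, 1 in MM3MG-Her2 and 6 in MM3MG, and Meg3 had 1 read in MM3MG, too few to compare.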

How the data were processed

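The authors deposited counts: for each of the 15 libraries, every distinct insert without its adapters stands beside its read number. Per the labels' protocols, TRIzol RNA was ligated to 3′ and 5′ adapters, reverse transcribed, amplified by PCR and cut from a gel. Trimming tool, aligner and genome build: not given in the sources used here. Inserts of 18 to 26 bases were matched to GENCODE M21 hairpins (GRCm38): an exact match was required over the first 18 bases, with at most 2 differences later on. Of 6892924 reads 4369728 were assigned, to arms placed with RefSeq. Levels are CPM over miRNA reads. The tests on these counts used edgeR 4.0.16 in R 4.3.3 (TMM, filterByExpr, robust quasi-likelihood F-test, Benjamini-Hochberg adjustment, threshold 0.05), the 9 cell libraries in 1 fit and the 9 TUBO-derived libraries in another, over all features, and the fit was tested on simulated data. DESeq2 1.42.0 was an alternative, as were other scalings, match rules, no filter, a replicate block and leaving out each library. Python 3.11.15 and scipy 1.17.1 gave intervals and permutation tests. Fold changes are the first-named group minus the second, and SE is the fold change over the root of F. With 0 reads, a fold is against 3 reads over the group.

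Arms with a group mean of at least 100 CPM are given by library, and those at 10 to 100 CPM by name. miR-369-3p is also given by library because it passed the filter. Substitutions are given for arms with at least 200 reads. Members and lists were chosen with earlier results of these data known. Same-number libraries were not paired by the labels.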

Additional observations from a re-analysis of the deposited data

How the results depend on the processing

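Of 792 alternative log2 fold changes of named arms, 786 kept their direction and their side of the threshold, 4 lost the call, 1 gained it (miR-379-5p, supernatant against TUBO cells, 2.88 without TUBO supernatant replicate 3) and 1 reversed: miR-381-3p in supernatant against TUBO cells was 1.30 (adjusted p = 0.549, edgeR) and −2.57 (adjusted p = 0.632) without TUBO supernatant replicate 2, where its only supernatant read lies (−2.57 to 3.61 with 1 library left out at a time). Without the low-count filter 27 of 48 tested cluster features were lower in MM3MG-Her2 than in MM3MG (15.6% of all features tested were) and 35 of 48 in TUBO cells than in MM3MG (21.3%), with 15 and 16 of 24 in the upstream list. Likewise 12 of 24 were higher in exosomes than in TUBO cells (9.43%) and 4 of 24 in supernatant than in TUBO cells (13.8%). One fit of all 15 libraries tested 14 cluster features and called 11 higher in exosomes than in TUBO cells (18.8% of all features tested), 4 in supernatant than in TUBO cells (24.3%) and 7 in exosomes than in supernatant (37.8%). When the whole insert had to match, supernatant against TUBO cells gave 0 calls among 4 tested cluster features in edgeR (0 at an unadjusted p under 0.05), where DESeq2 with the usual match gave 2, and the summed MM3MG-Her2 level was 307.7 CPM. Letting uncalled bases match changed no value. As RPM over all reads of the library, the cluster summed to 345.9 in exosomes, 31.9 in supernatant and 8.59 in TUBO cells. It summed to 149.7 in MM3MG-Her2 and 7010 in MM3MG. These values differ from the CPM since the miRNA share of the libraries differs.

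With 1 library left out at a time, the features past the threshold numbered 13 to 18 for MM3MG-Her2 against MM3MG, 13 to 17 for TUBO cells against MM3MG, 12 to 14 for TUBO cells against MM3MG-Her2, 5 throughout for exosomes against TUBO cells, 1 to 3 for supernatant against TUBO cells and 3 to 4 for exosomes against supernatant. A replicate block gave the same numbers as no block (14, 14, 12, 5, 2 and 4, and 8 and 8 upstream). Deviations of same-number libraries correlated at 0.0429, 0.121 and 0.179 for exosomes against supernatant and between −0.162 and 0.0568 elsewhere, so the numbers were not taken as pairs. Other scalings moved the share of higher calls over all features tested by more than 10 percentage points in 3 comparisons: 54.5% to 44.1% (relative log expression) or 39.1% (upper quartile) for TUBO cells against MM3MG, 45.2% to 34.1% (upper quartile) for TUBO cells against MM3MG-Her2, and 65.2% to 42.7% (relative log expression) for exosomes against TUBO cells. The A5G shares among inserts of the most frequent length were 1.69% in miR-379-5p and 3.45% in miR-411-5p. In TUBO supernatant and TUBO cells single arms rest on 0 to 6 reads, and a count of 0 allows up to 14.2 CPM in supernatant and 2.09 CPM in TUBO cells.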
